A study of Homo sapiens with 5 samples.

Results

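The family of hsa-miR-148a, hsa-miR-148b and hsa-miR-152, human microRNAs (miRNAs) with a common guide-strand seed, takes 6 of the 2565 human miRNA rows counted in MCF10A mammary epithelial cells. The 6 rows were chosen by name, as both arms of each of the 3 hairpins: hsa-miR-148a-3p, hsa-miR-148a-5p, hsa-miR-148b-3p, hsa-miR-148b-5p, hsa-miR-152-3p and hsa-miR-152-5p. MCF10A is a single immortalized, non-tumorigenic human breast epithelial line. It was grown in DMEM/F12 medium with donor horse serum, epidermal growth factor, insulin, cholera toxin, hydrocortisone, penicillin and streptomycin. Of the 5 small RNA libraries, 3 came from attached cells on uncoated plates and 2 from detached cells, kept in suspension over a 2% poly-HEMA coat that prevents adhesion. Per the series text both groups were cultured for 24 h, whereas the sample labels give 0 h for attached and 24 h for detached cells. No label states that replicates were independent cultures, and a p-value here reflects only library-to-library spread, part of which may be technical.

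A miRNA hairpin can give a mature RNA from its 5′ side (5p) and from its 3′ side (3p). The arm retained by Argonaute guides repression, and pairing rests mainly on its seed, bases 2 to 8. In this family the 3p arms are the usual guides. They are known to repress the maintenance DNA methyltransferase DNMT1 and the non-classical MHC gene HLA-G, and miR-148a-3p also acts on the LDL receptor and the cholesterol transporter ABCA1. In breast, miR-148a is abundant in milk, and miR-148b has been described as restraining invasion of tumour cells through integrin and cytoskeletal targets.

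The mature sequences are shown because the 3 guide arms share a seed, whereas the 5p arms of miR-148b and miR-152 do not. They come from RefSeq on GRCh38.p14, which held 5 of the 6 arms and lacked miR-148a-5p, and the capitals mark the seed.
miR-148a-3p: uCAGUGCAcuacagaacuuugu
miR-148b-3p: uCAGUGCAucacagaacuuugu
miR-152-3p: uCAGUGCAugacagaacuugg
miR-148b-5p: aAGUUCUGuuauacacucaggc
miR-152-5p: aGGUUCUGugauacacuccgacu
Counting positions from 1 at the 5′ end, miR-148a-3p and miR-148b-3p were identical at 20 of 22 bases and differed by C9U and U10C. miR-148b-3p and miR-152-3p were identical at 19 of 21 bases compared and differed by C10G and U20G. The 3p seed CAGUGCA occurred in 3 human miRNA names with a RefSeq sequence, all of them in the family; 2253 of the 2565 human rows were matched to such a sequence. The seeds of miR-148b-5p and miR-152-5p differed by A2G. That of miR-148b-5p was shared by 1 other name, miR-6874-3p, which reached at most 0.227 counts per 1000000 human miRNA counts. How the authors' counting treated reads that fit more than one of these similar names is not given in the sources used here, so the split between the 3p members carries that uncertainty.

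The hairpins are shown to place the arms, with the arms listed by RefSeq in capitals.
MIR148A: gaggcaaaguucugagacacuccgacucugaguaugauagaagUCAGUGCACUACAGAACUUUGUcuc
MIR148B: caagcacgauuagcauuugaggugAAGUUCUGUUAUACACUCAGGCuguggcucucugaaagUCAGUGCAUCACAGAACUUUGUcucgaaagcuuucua
MIR152: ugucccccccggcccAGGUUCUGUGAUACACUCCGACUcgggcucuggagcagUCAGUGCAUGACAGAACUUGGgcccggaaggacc
On GRCh38, MIR148A lies on the minus strand of chromosome 7 from 25949919 to 25949986 and overlaps no annotated gene of another type in GENCODE 29. MIR148B lies on the plus strand of chromosome 12 from 54337216 to 54337314, in an intron of COPZ1 and of the overlapping transcript gene AC078778.2. MIR152 lies on the minus strand of chromosome 17 from 48037161 to 48037247, in an intron of COPZ2. COPZ1 and COPZ2 encode paralogous zeta subunits of the COPI coat, which returns vesicles from the Golgi to the endoplasmic reticulum, so these hairpins lie in introns of a pair of related genes.

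Human miRNA counts totalled 8805009 to 15793173 per library, 97.1% to 98.7% of all named counts. Levels below are counts per 1000000 human miRNA counts (CPM), on which 3 counts correspond to 0.190 to 0.341 CPM. That limit covers counting error alone, as reads lacking molecular identifiers may be copies of one molecule. Attached replicate 2 stood apart. Over the 697 tested miRNAs it correlated with the others at a Spearman rho of 0.812 to 0.857, while the remaining libraries reached 0.927 to 0.961 with each other, and 51.1% of these miRNAs were lowest in it. Results are therefore given with and without it. The 6 epithelial markers summed to 41724 to 97412 CPM in attached and 86786 to 120953 CPM in detached libraries, with the lowest sum in attached replicate 2. Most of each sum was miR-205-5p and miR-141-3p, and miR-203a-3p moved far more than the sum, from 6.42, 6.93 and 7.27 CPM to 121 and 47.9 CPM (log2 fold change 3.42, SE 0.73, edgeR adjusted p 0.170; 3.61, edgeR adjusted p 0.0033, without attached replicate 2). Of the 6 epithelial markers, 4 had a positive and 2 a negative log2 fold change. The negative ones were miR-141-3p (-0.69, SE 0.52) and miR-31-5p (-0.25, SE 0.70). Blood-cell markers (6 names) summed to 5.79 to 18.8 CPM in attached and 22.0 to 22.2 CPM in detached libraries. Mesenchymal markers (5 names) summed to 4.46 to 11.9 CPM and 18.3 to 57.8 CPM, with miR-214-3p at 0 counts in 3 libraries. Muscle markers (3 names) summed to at most 1.40 CPM in attached and to 11.7 and 0.0949 CPM in detached libraries, with miR-133a-3p at 0 counts throughout. The liver marker miR-122-5p reached at most 0.775 CPM, the 2 neural markers at most 10.1 CPM and the 2 endothelial ones at most 34.6 CPM. The part of these shifts in the results below was not tested.

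None of the 5 tested members passed the test between detached and attached MCF10A cells. The miR-148 guide arms were at moderate abundance and lowest in attached replicate 2. miR-148a-3p, the member tied to LDL receptor control, stood at 771, 233 and 708 CPM in attached replicates 1, 2 and 3, and at 785 and 1059 CPM in detached replicates 1 and 2. Both detached libraries were above all attached ones, but detached replicate 1 exceeded attached replicate 1 by little, and with TMM scaling, which adjusts for library composition, the groups overlapped. The means were 571 ± 294 CPM over attached (SD, n = 3) and 922 ± 194 CPM over detached libraries (SD, n = 2). miR-148b-3p, the COPZ1-hosted guide, stood at 740, 165 and 894 CPM in the attached libraries and at 942 and 1175 CPM in the detached ones. Its detached libraries were above all attached ones on both scales. In CPM, the level in attached replicate 2 was exceeded 4.48-fold to 7.11-fold by the other 4. With TMM scaling that library stood at 221 CPM against 783 to 947 CPM. The means were 600 ± 384 CPM over attached (SD, n = 3) and 1058 ± 165 CPM over detached libraries (SD, n = 2). A separation of this kind, higher in detached cells, was common: it held for 18.1% of the 697 tested miRNAs in CPM and 14.9% with TMM scaling.

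miR-152-3p, the guide hosted by COPZ2, was less abundant and did not separate the groups. It stood at 227, 112 and 171 CPM in the attached libraries and at 214 and 197 CPM in the detached ones, and the detached values lay inside the attached range. The means were 170 ± 57.6 CPM over attached (SD, n = 3) and 205 ± 11.7 CPM over detached libraries (SD, n = 2). In CPM, attached replicate 2 was again lowest, but by a smaller margin, with the other libraries 1.53-fold to 2.03-fold above it. With TMM scaling it stood at 150 CPM, beside 150 CPM in attached replicate 3 and 158 CPM in detached replicate 2. Attached replicate 1 and detached replicate 1 stood at 241 and 215 CPM on that scale.

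**Figure D1:**
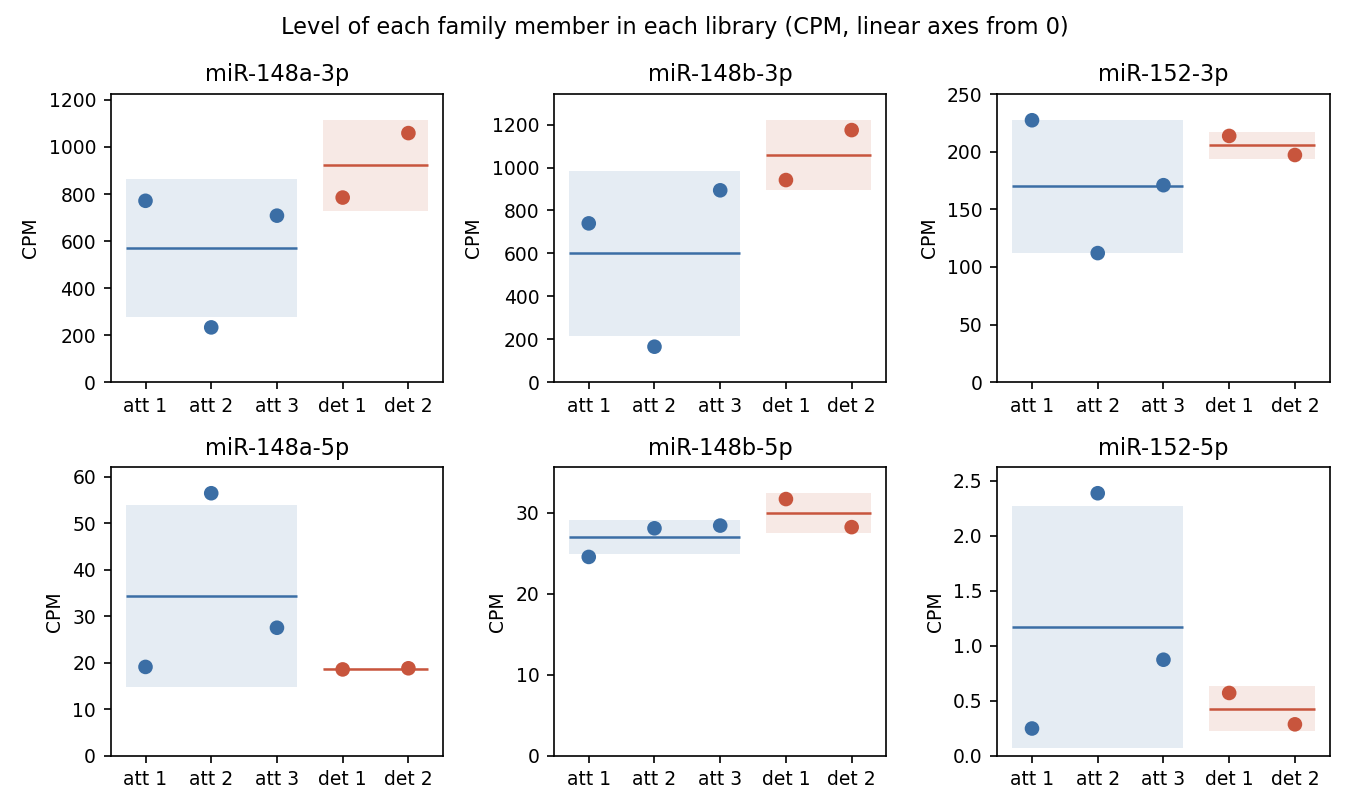
CPM of each member (y axis, linear from 0) in the 3 attached (att, blue) and 2 detached (det, red) libraries (x axis); points are libraries, lines are group means and shaded bands are ± 1 SD. Attached replicate 2 is lowest for the 3 3p arms and highest for miR-148a-5p and miR-152-5p.

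The order of the guide arms varied between libraries at the top only. miR-148b-3p exceeded miR-148a-3p in attached replicate 3 and both detached libraries, and miR-148a-3p was the higher one in attached replicates 1 and 2. miR-152-3p came after both in all 5 libraries. Among all human miRNA rows miR-148a-3p ranked 70 to 99, miR-148b-3p 61 to 113 and miR-152-3p 123 to 143.

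Among the 5p arms, usually the less retained strands, miR-148a-5p had a pattern opposite to that of its 3p partner. It stood at 19.1, 56.4 and 27.5 CPM in the attached libraries and at 18.6 and 18.8 CPM in the detached ones. Attached replicate 2 was 2.05-fold above the next library, and both detached libraries were below all attached ones on both scales, although attached replicate 1 was close to them. Such a separation toward lower levels held for 8.75% of tested miRNAs in CPM and 14.2% with TMM scaling. The means were 34.3 ± 19.6 CPM over attached (SD, n = 3) and 18.7 ± 0.173 CPM over detached libraries (SD, n = 2).

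Without TMM scaling, miR-148b-5p varied least of the 6, with 24.5, 28.1 and 28.4 CPM in the attached libraries against 31.7 and 28.2 CPM in the detached ones. Its highest library was then 1.29-fold above its lowest, and the groups overlapped. With TMM scaling it varied more and was highest in attached replicate 2, at 37.5 CPM against 22.6 to 31.8 CPM in the others. miR-152-5p was scarce, with 3, 21 and 9 counts in attached and 9 and 3 counts in detached libraries. It had its highest level, 2.39 CPM, in attached replicate 2 and did not pass the low-count filter, which the other 5 members passed. Of 42 further names of miR-148 or miR-152, for other species or with a prefix before the human name, 1 had any count, with 1 count in each of 2 libraries.

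edgeR's quasi-likelihood test across all 697 tested miRNAs called none of the 5 tested members at adjusted p under 0.05, where 0% of all tested miRNAs were called. At unadjusted p under 0.05 it also gave 0 of the 5 members, with 7.03% of all tested miRNAs. The log2 fold change of detached over attached cells, on the TMM scale, was 0.49 (SE 0.62, edgeR adjusted p 0.883) for miR-148a-3p and 0.66 (SE 0.69, edgeR adjusted p 0.822) for miR-148b-3p. miR-152-3p gave 0.05 (SE 0.61, edgeR adjusted p 0.991). The 5p arms gave -1.24 (SE 0.80, edgeR adjusted p 0.765) for miR-148a and -0.11 (SE 0.62, edgeR adjusted p 0.977) for miR-148b. These 5 values had 3 positive and 2 negative signs and stood beside a median of -0.04 over all tested miRNAs.

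The intervals show how little 5 libraries of this spread resolve. The 95% interval ran from -0.94 to 1.92 for miR-148a-3p, from -0.91 to 2.24 for miR-148b-3p and from -1.35 to 1.45 for miR-152-3p. For miR-148a-5p it ran from -3.07 to 0.59, and for miR-148b-5p from -1.53 to 1.31. Each interval holds 0 and also changes of over 1 log2 unit in at least 1 direction, so a change of that size was neither shown nor excluded. With library totals in place of TMM factors the median of all miRNAs moved by 0.24, and on that scale miR-148b-5p turned to 0.15. Size factors computed as in DESeq2 turned miR-152-3p to -0.0072.

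Without attached replicate 2 the members with the largest values moved toward 0. miR-148a-3p then gave 0.19 (SE 0.47, edgeR adjusted p 0.937) and miR-148b-3p 0.27 (SE 0.46, edgeR adjusted p 0.915). miR-148a-5p gave -0.40 (SE 0.48, edgeR adjusted p 0.816). miR-152-3p and miR-148b-5p changed sign, to -0.07 (SE 0.50) and 0.10 (SE 0.49). In that fit edgeR called 3.39% of 679 tested miRNAs, and 0 of the 5 members. The intervals narrowed to -0.81 to 1.19 for miR-148a-3p and -0.72 to 1.25 for miR-148b-3p. The library was singled out in these same data, so the spread without it may be too small.

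**Figure D2:**
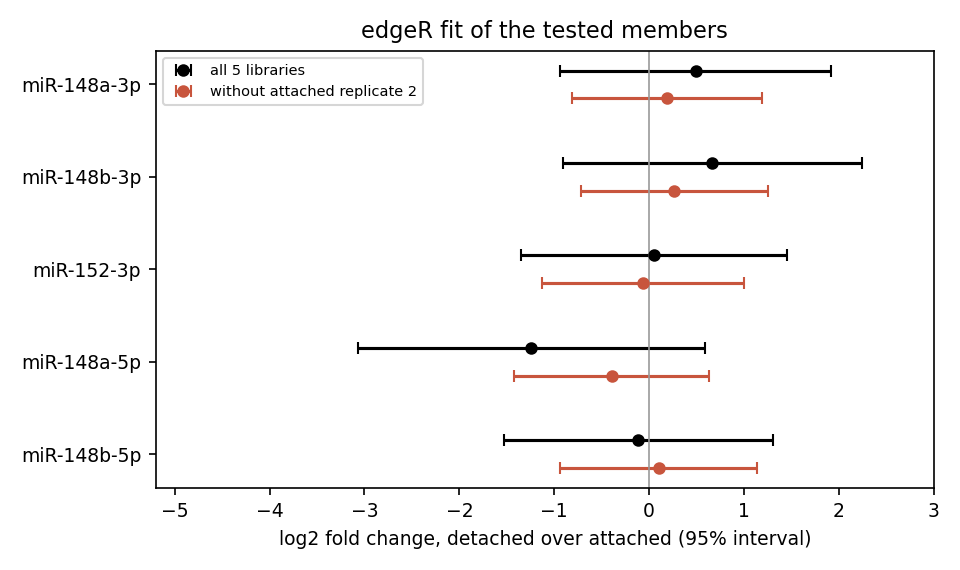
Log2 fold change of detached over attached cells from edgeR (x axis) for the 5 tested members (y axis), with 95% intervals, for all 5 libraries (black) and without attached replicate 2 (red). Every interval crosses 0, and the red points lie nearer to 0 than the black ones for miR-148a-3p, miR-148b-3p and miR-148a-5p.

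The authors' deposited table gives the same signs. There the log2 fold change was 0.36 for miR-148a-3p, 0.49 for miR-148b-3p, 0.02 for miR-152-3p, -1.03 for miR-148a-5p, -0.09 for miR-148b-5p and -1.22 for miR-152-5p. The adjusted p in the authors' deposited table was 0.998 for all 6.

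The guide arms share a seed, and their counts were also summed, as a share of human miRNA counts. The 3 3p arms together stood at 1738, 510 and 1773 CPM in the attached libraries and at 1940 and 2431 CPM in the detached ones. Attached replicate 2 was far below the rest, and the other attached libraries were below both detached ones. As a share of human miRNA counts the sum was 0.134% ± 0.0719 in attached (SD, n = 3) and 0.219% ± 0.0347 in detached cells (SD, n = 2). Without attached replicate 2 the gap was smaller, with 0.174% and 0.177% in attached against 0.194% and 0.243% in detached libraries. Among single tested miRNAs, 18.1% had both detached libraries above all attached ones in CPM.

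Within that sum miR-148a-3p kept a narrow range and the other guides varied more. miR-148a-3p held 39.9% to 45.7% of the 3p counts over the 5 libraries. miR-148b-3p held 42.6%, 32.4% and 50.4% in attached and 48.5% and 48.3% in detached libraries, and miR-152-3p 13.1%, 22.0% and 9.64% in attached and 11.0% and 8.11% in detached libraries. The share of miR-152-3p was highest, and that of miR-148b-3p lowest, in attached replicate 2. In the ratio of miR-152-3p to miR-148a-3p the detached minus attached difference was -0.53 on the log2 scale (exact permutation p = 0.4, adjusted p = 0.6 over 4 ratios). In the ratio of miR-148b-3p to miR-148a-3p it was 0.28 (exact permutation p = 0.6, adjusted p = 0.6). Both tests were two-sided, and 3 against 2 libraries cannot give a p below 0.2. Without attached replicate 2 the differences were -0.25 and 0.07.

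**Figure D3:**
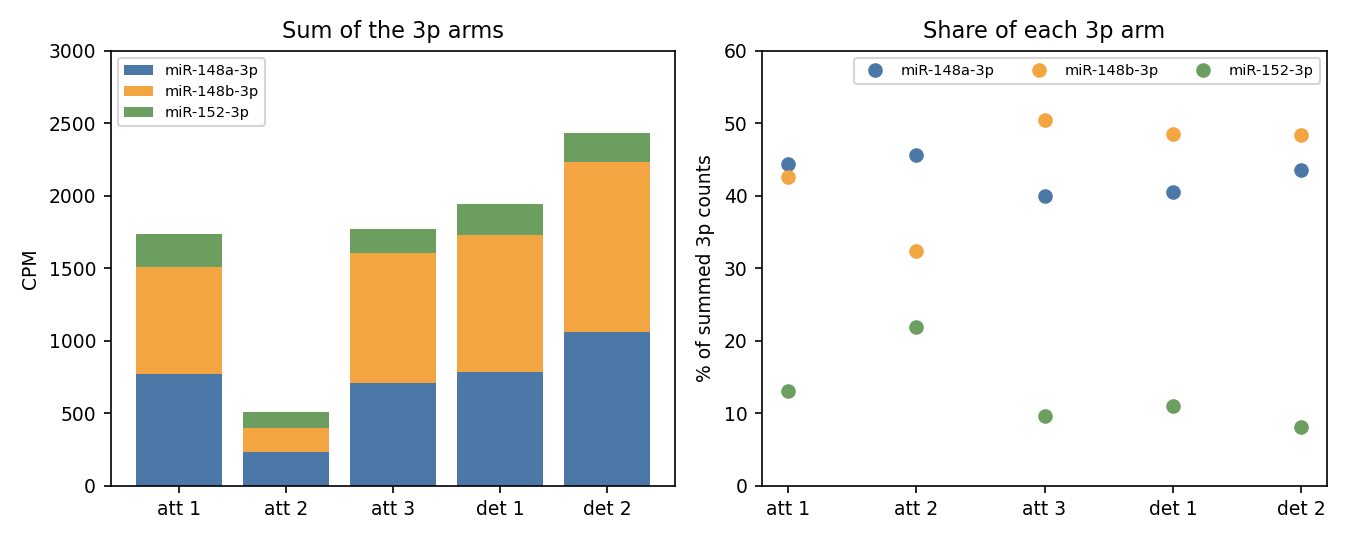
Left, summed CPM of the 3p arms (y axis from 0), stacked by member, in each library (x axis); right, each arm as a percentage of the summed 3p counts. The sum is 510 CPM in attached replicate 2 and 1738 to 2431 CPM in the other libraries.

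Arm ratios do not depend on library scaling. In miR-148a, the 5p arm was 2.42%, 19.5% and 3.74% of the counts of both arms in attached replicates 1, 2 and 3, and 2.31% and 1.74% in the detached libraries. All detached values were below all attached ones, but attached replicate 1 differed little from detached replicate 1. The log2 ratio of 5p to 3p averaged -4.02 ± 1.74 in attached (SD, n = 3) and -5.61 ± 0.29 in detached cells (SD, n = 2), a difference of -1.59 (two-sided exact permutation p = 0.2, the smallest possible, adjusted p = 0.6). Without attached replicate 2 the difference was -0.60.

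In miR-148b the 5p arm was 3.21%, 14.5% and 3.08% of both arms in attached and 3.25% and 2.34% in detached libraries. Outside attached replicate 2, the shares ran from 2.34% to 3.25%. The detached minus attached difference in the log2 ratio was -0.99 (two-sided exact permutation p = 0.6, adjusted p = 0.6), and -0.19 without attached replicate 2. In miR-152 the 5p arm was 0.108%, 2.09% and 0.508% in attached and 0.266% and 0.144% in detached libraries, again highest in attached replicate 2. In the 3 hairpins alike, therefore, the highest 5p share was in that library.

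Over all 178 hairpins with both arms tested, the ratio of the less to the more abundant arm was highest in attached replicate 2 in 30.3%. Its median was -4.21 on the log2 scale in that library and -3.83 to -3.60 in the others, so the typical hairpin there had a lower, not a higher, share of the minor arm. The ratio in attached replicate 2 exceeded the median of the other libraries by 3.32 for miR-148a and by 2.39 for miR-148b, and 9 and 18 of the 178 hairpins had a larger excess. A lower ratio in both detached libraries than in all attached ones, as in miR-148a, was found in 12.4% of hairpins.

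**Figure D4:**
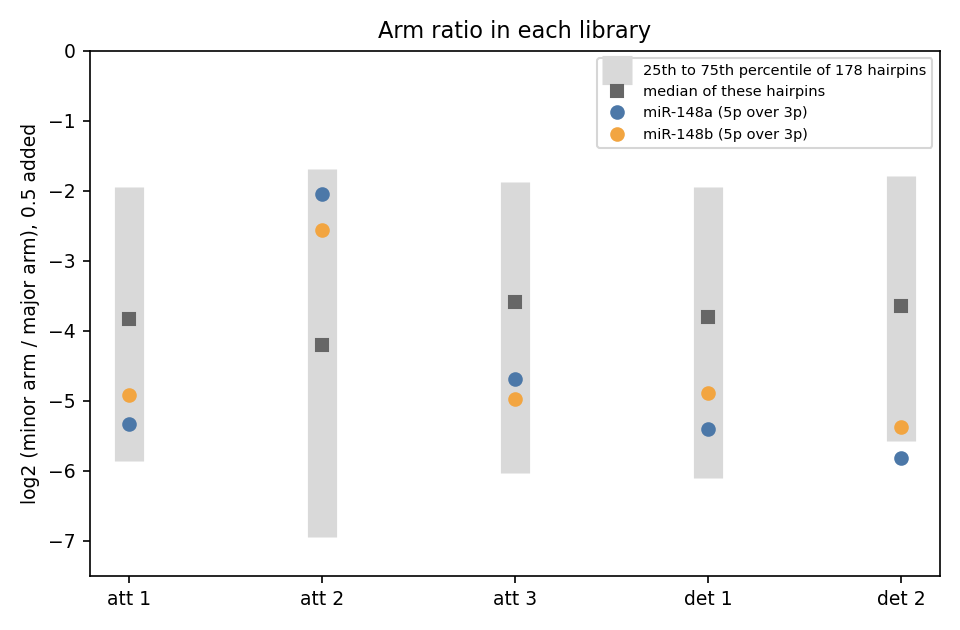
Log2 ratio of the minor to the major arm (y axis, 0.5 added to each count) in each library (x axis) for miR-148a and miR-148b, with the median (squares) and the 25th to 75th percentile (grey bars) of 178 hairpins. Both family hairpins lie above the median in attached replicate 2, at -2.04 and -2.56, and below it in the other 4 libraries.

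The miRNAs whose profiles were nearest to those of the members were found by the root mean square difference of log2(CPM + 1) over the 5 libraries, each profile centred on its mean. The search covered the 352 miRNAs with a mean of at least 10 CPM, less the members among them. For miR-148a-3p these were miR-205-5p (difference 0.0973), miR-1285-3p (0.147) and miR-149-5p (0.172). The basal epithelial miRNA miR-205-5p stood at 60959, 17078 and 56804 CPM in the attached libraries and at 52414 and 82383 CPM in the detached ones. For miR-148b-3p they were miR-17-3p (0.132), let-7g-3p (0.208) and miR-7-1-3p (0.211). Like these guides, all of these neighbours were lowest in attached replicate 2, as were 51.1% of tested miRNAs. How far nearness rested on that library was not tested. The miR-148a-3p profile itself differed from that of miR-148b-3p by 0.298 and from that of miR-152-3p by 0.449.

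miR-152-3p was nearest to miR-182-5p (0.0648), miR-29c-3p (0.173) and miR-542-5p (0.177). miR-148a-5p was nearest to let-7f-2-3p (0.0708), miR-548k (0.133) and miR-1294 (0.166), and let-7f-2-3p was also highest in attached replicate 2, at 106 CPM against 34.1 to 45.0 CPM. miR-148b-5p was nearest to let-7c-5p (0.0919), miR-26b-5p (0.104) and miR-501-5p (0.117). The arms of miR-148a were farther apart (1.33) than the median of 0.824 between miR-148a-3p and the miRNAs searched, members left out.

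Other miRNAs described as repressing DNA methyltransferases were compared, with the family left out. Of 8 such miRNAs, all tested, edgeR called 0 with all 5 libraries, where 0% of all tested miRNAs were called. Of their log2 fold changes, 5 were positive and 3 negative, with a median of 0.22 beside -0.04 over all tested miRNAs. The smallest p values belonged to miR-143-3p (1.86, SE 1.00, edgeR adjusted p 0.730) and miR-29a-3p (-1.28, SE 0.73, edgeR adjusted p 0.735). miR-29a-3p, which acts on DNMT3A and DNMT3B, stood at 28406, 66819 and 22703 CPM in the attached libraries and at 22856 and 19045 CPM in the detached ones. It was thus high in attached replicate 2, where the miR-148 guides were low. The other miR-29 names in the list went the other way. miR-29b-3p and miR-29c-3p were lowest in attached replicate 2, at 14003 and 2991 CPM. Without that library miR-29a-3p gave -0.38 (SE 0.47), and the median of the 8 was 0.02 beside -0.06 over all tested miRNAs. Then 1 of the 8, miR-143-3p, was called (3.12, SE 0.71, edgeR adjusted p 0.0225), where 3.39% of all tested miRNAs were. miR-143-3p also stands among the mesenchymal markers, of which both tested names, miR-143-3p and miR-145-5p (4.15, edgeR adjusted p 0.0027), were called in that fit.

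Of 12 miRNAs described as acting on LDL receptor, ABCA1 or sterol-regulatory genes, as miR-148a does, 9 were tested. With all 5 libraries edgeR called 0 of them, where 0% of all tested miRNAs were called. Of these 9, 5 were positive and 4 negative, with a median of 0.17 beside -0.04 over all tested miRNAs. In edgeR 1 of them was lower at unadjusted p under 0.05, as were 2.3% of all tested miRNAs. That one was miR-33b-5p, from an intron of SREBF1 and a repressor of ABCA1, with 294, 85.3 and 63.7 CPM in the attached libraries against 37.7 and 44.2 CPM in the detached ones (-2.13, SE 0.88, edgeR adjusted p 0.654). miR-130b-3p, a repressor of the LDL receptor, stood at 168, 174 and 194 CPM in the attached libraries and at 291 and 522 CPM in the detached ones (0.88, SE 0.58, edgeR adjusted p 0.765). Without attached replicate 2, 4 of the 9 were positive, with a median of -0.29 beside -0.06 over all tested miRNAs. In that fit 2 were lower at unadjusted p under 0.05, as were 3.53% of all tested miRNAs. These were miR-33b-5p (-2.32, SE 0.67, edgeR adjusted p 0.0788) and its paralog miR-33a-5p (-2.31, edgeR adjusted p 0.091), named after its values were seen, and neither was called. miR-185-5p stands in both lists.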

How the data were processed

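Small RNAs of 18 to 24 nt were size-selected from 50 µg of total RNA, per the labels. The authors deposited raw read counts per named small RNA for each library. The 5 summary rows of the counting program total 0 and were left out. The submitters' processing notes name hg38 and DESeq2, with no role; for aligner and counter, no source used here gives a name. The authors' deposited comparison table holds, per the file header, log2 fold changes, a test score, p-values and a signal, which is the count over a size factor; 100% of the signal values came out as whole reads within 0.01.

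For human miRNA rows, edgeR 4.0.16 (R 4.3.3) ran a two-sided quasi-likelihood F test with TMM factors on their total and Benjamini-Hochberg adjustment, after filterByExpr (min.count 10, min.total.count 15). SE is the absolute log2 fold change over the square root of F. Ratios of members used raw counts with 0.5 added and exact permutation (scipy 1.17.1). The test was checked on simulated data, which had less spread between libraries, and larger changes, than were found here for the members. That check therefore does not show how well the test finds changes of the size seen in the members. Alternatives were DESeq2 1.42.0, limma 3.58.1 (voom), other scalings and filters, all named rows, a replicate block and leaving out each library. Reads recovered from the authors' values were added after seeing the data.

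All 6 member rows, the 3 nearest profiles of each tested member and the 2 smallest p in each list were named; any other miRNA was chosen after seeing its values. Members and lists were chosen with earlier results of these data known. Sequences come from RefSeq (GRCh38.p14) and host genes from GENCODE 29. Within groups, replicate pairs differed by a chi-square of 729 to 4220 per degree of freedom, so none was the same library counted again. This does not tell whether the replicates were independent cultures.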

Additional observations from a re-analysis of the deposited data

How the results depend on the processing

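No member was called in any of the alternatives run, with adjusted p from 0.582 to 0.999. The log2 fold change of miR-148a-3p stayed positive (0.19 to 0.81), as did that of miR-148b-3p (0.27 to 1.18), and miR-148a-5p stayed negative (-1.58 to -0.40). miR-152-3p and miR-148b-5p had no stable sign. With RLE size factors miR-152-3p gave -0.0072, and with the replicate block -0.042. With library totals miR-148b-5p gave 0.15. Leaving out 1 library gave -0.14 to 0.31 for miR-152-3p and -0.32 to 0.19 for miR-148b-5p; the cause was not tested.

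Counts of calls over all human miRNAs moved from 0 higher and 0 lower to 14 and 5 without the low-count filter and to 12 and 0 with DESeq2. Leaving out 1 library gave 0 to 22 higher and 0 to 1 lower, with all calls without attached replicate 2. The test on reads recovered from the authors' values called 0 in each direction. These reads equalled the deposited counts in 100% of the rows compared, so that fit is not a separate check. The stricter filter left no value for the 5p arms. Without the filter miR-152-5p gave -1.54 (SE 0.89, edgeR adjusted p 0.857).

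The 4 ratios kept their sign in all alternatives. Leaving out 1 library gave -2.24 to -0.60 for the arms of miR-148a, -1.40 to -0.19 for those of miR-148b, 0.07 to 0.48 for miR-148b-3p to miR-148a-3p and -0.80 to -0.25 for miR-152-3p to miR-148a-3p, with the value nearest 0 in each case without attached replicate 2. The labels do not say that replicate numbers pair libraries, and deviations from the group means correlated at -0.267 for number 1 and -0.245 for number 2. The deviations of 2 detached libraries from their mean mirror each other. Unlike numbers therefore gave 0.267 (attached replicate 1) and 0.245 (attached replicate 2), and these values cannot decide on pairing. With the replicate block miR-148a-3p gave 0.70 (SE 1.12), miR-148b-3p 1.18 (SE 1.14), miR-148a-5p -1.22 (SE 1.33) and miR-148b-5p -0.22 (SE 1.23), with 0 calls, and the ratios in the order above -1.92, -1.40, 0.48 and -0.74. For the ratios the block used replicates 1 and 2 only, so its values equal those without attached replicate 3.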
